A study of Drosophila melanogaster with 4 samples.

Results

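The X chromosome of the fruit fly Drosophila melanogaster carried 997 clusters of enrichment for RNA polymerase II phosphorylated at serine 2 (Ser2P), out of 5566 clusters in the whole genome. They were taken from the authors' combined set, which is the region list deposited for both ChIP replicates together, by 2 criteria: the region lies on X and the authors named it significantly enriched. Chromatin came from Kc167, a cell line of late embryonic origin, female and of genotype se/e per the labels, fixed with formaldehyde and sheared by sonication. All 4 libraries share that cell line and genotype; 2 are ChIP libraries made with the rabbit polyclonal antibody ab5095 against the phosphorylated C-terminal repeat, and the 2 input DNA libraries were not analysed here. The clusters of the 2 ChIP replicates on X, 968 in replicate 1 and 966 in replicate 2, serve as the measure of error. Whether they stem from separate cultures is not in the labels, so their spread may be technical only, and read depth is unknown.

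Serine 2 of the C-terminal repeat is phosphorylated as the polymerase leaves the promoter region and elongates through a gene, so the mark covers transcribed gene bodies and their downstream ends rather than promoters alone. In flies the X holds a special place in transcription because of dosage compensation. In males the MSL complex, which contains the roX RNAs, binds active genes of the single X and raises their transcription. In females the protein Sex-lethal blocks production of the MSL2 subunit, the complex does not assemble, and both X chromosomes are transcribed without it. The comparison below asks how densely, how broadly and how evenly elongating polymerase clusters were placed on X in this female line, next to the autosomal arms 2L, 3L and 3R. Positions are on release 5 of the FlyBase genome, counted from 1, and clusters are identified by position alone.

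Clusters stood closer together on X than on the 3 autosomal arms. X had 44.5 clusters per Mb over its 22.4 Mb, against 41.0 on the pooled arms over 75.5 Mb. The single arms had 40.2 on 2L, 43.1 on 3L and 39.8 on 3R. In the replicates X had 43.1 ± 0.063 clusters per Mb and the pooled arms 38.8 ± 0.19 (SD, n = 2 each). X exceeded the pooled arms by 4.24 clusters per Mb in replicate 1 and 4.41 in replicate 2, and the gap to each of the 3 arms had the same sign in both replicates. The smallest of them, to 3L, was 2.36 ± 0.081 clusters per Mb (SD, n = 2). These differences are larger than the spread between replicates. They carry no p, because 2 replicates allow no two-sided p under 0.5 in an exact sign-flip test, and clusters of one library are not replicates.

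The place of X depends on which arms it is set against. The arm 2R, which is not among the 3 reference arms, had 51.7 clusters per Mb in the combined set and 49.6 ± 0.37 in the replicates (SD, n = 2). X was therefore the second most densely occupied of the 5 large arms. With only 5 arms to compare, this order describes these arms and is no test of X against autosomes as a class.

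The covered share was slightly larger on X than on the pooled arms. Clusters covered 4.65 Mb of X, which is 20.8% of its length, against 14.6 Mb and 19.4% of the pooled arms. The single arms stood at 18.1% on 2L, 19.6% on 3L and 20.2% on 3R. In the replicates the covered share was 18.5% ± 0.42 on X and 17.4% ± 0.33 on the pooled arms (SD, n = 2 each). Replicate 2 was higher than replicate 1 on every arm, and the difference was therefore taken within each replicate: the excess of X over the pooled arms was 1.08 percentage points in replicate 1 and 1.21 points in replicate 2. Against 3R alone the difference was only 0.12 and 0.28 percentage points in replicates 1 and 2. The mean of that difference, 0.20 ± 0.11 percentage points, was small beside the change between replicates on either arm, so coverage did not separate X from 3R as clearly as cluster number did. On 2R the covered share was higher than on X, with 23.4% in the combined set, 20.6% in replicate 1 and 21.1% in replicate 2.

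**Figure D1:**
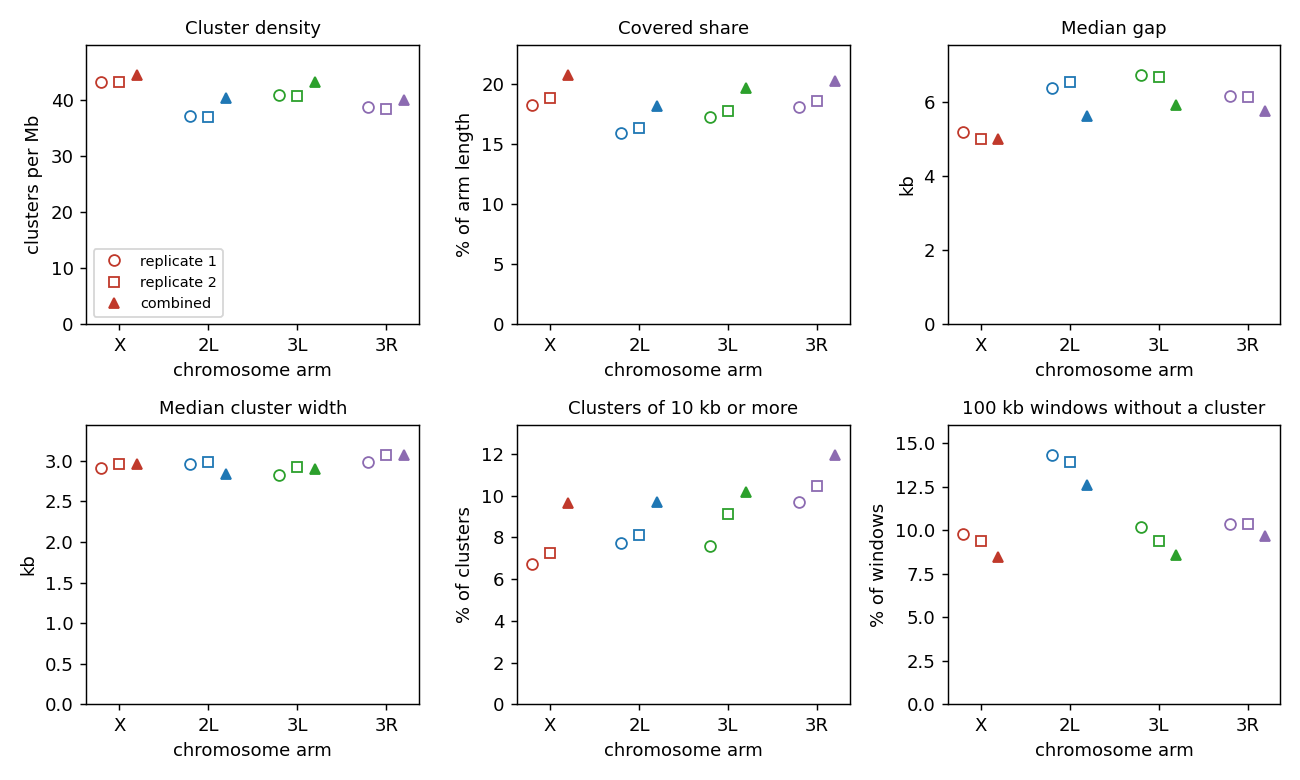
Values by chromosome arm for X, 2L, 3L and 3R: clusters per Mb, percent of the arm covered, median gap and median width in kb, percent of clusters of 10 kb or more, and percent of 100 kb windows without a cluster. Open circles are replicate 1, open squares replicate 2 and filled triangles the combined set; X is highest in density and lowest in median gap in all 3 sets, while the median widths differ little.

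Widths did not distinguish X. The median cluster was 2964 bp wide on X and 2954 bp on the pooled arms, with a middle range from 2068 to 5499 bp on X and from 2060 to 5642 bp on the arms. In replicate 1 the medians were 2907 bp on X and 2927 bp on the arms, and in replicate 2 they were 2965.5 bp on X and 2996.5 bp on the arms. The sign of the difference thus changed between the combined set and the replicates, and none of these differences exceeded 31 bp. Among single arms the medians of the combined set ran from 2834.5 bp on 2L to 3072.5 bp on 3R, and X lay between them.

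Long clusters made up a smaller share of the clusters on X than on the arms. Clusters of 10 kb or more numbered 96 on X and 331 on the pooled arms. Their share of all clusters was 9.63% on X, against 9.72% on 2L, 10.2% on 3L and 12.0% on 3R. In the replicates the share was 6.98% ± 0.38 on X and 8.86% ± 0.65 on the pooled arms (SD, n = 2 each). X was below each of the 3 arms in both replicates. The sign turned once neighbouring clusters less than 1 kb apart were merged in the combined set, to 17.3% on X against 16.9% on the arms. After the same merging the replicates still had less on X, with 13.3% on X against 14.2% on the arms in replicate 1 and 13.3% against 15.0% in replicate 2. In the combined set the order of X and the arms in this class thus depended on whether close neighbours were counted as one cluster. The arm 2R had a smaller share of long clusters than X in every set. Without merging it was 8.23% in the combined set, 4.93% in replicate 1 and 6.14% in replicate 2.

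The 5 widest clusters of X show both the size of these domains and how they were split. The widest ran from 9443999 to 9487379, measured 43381 bp and was a single cluster in each replicate, with scores of 1.69 in replicate 1 and 1.72 in replicate 2. The score is the authors' own value for each region, on a scale the sources used here do not give. The domain from 16308446 to 16348960 measured 40515 bp and was listed as 4 clusters in replicate 1 and 1 in replicate 2. The next, from 19514244 to 19548139, measured 33896 bp, fell into 2 clusters in replicate 1 and 3 in replicate 2, and was covered over 94.2% and 94.1% of its length. A domain of 28591 bp from 8765867 to 8794457 appeared as 3 clusters in replicate 1, covering 86.3% of it, and as 2 in replicate 2, covering 95.7%. The last of the 5, from 18525496 to 18553468, measured 27973 bp and was 1 cluster in replicate 1 and 2 in replicate 2. All 5 had scores between 1.52 and 1.86 in the combined set, above the X median of 0.99, and none of them was among the 100 highest-scoring clusters of X; their ranks by score ran from 166 to 269.

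Wider clusters tended to score higher on X as elsewhere. The Spearman correlation of width with score across clusters was 0.64 on X and 0.61 on the pooled arms in the combined set. It describes clusters within one list, which share libraries and are not independent. The median score was 0.986 on X and 0.992 on the arms in the combined set. In the replicates it was 1.13 ± 0.0054 on X and 1.11 ± 0.012 on the arms (SD, n = 2 each), and the difference of 0.018 ± 0.0067 had the opposite sign to that in the combined set. The X clusters were thus closer together without a difference in median width or score that held in all 3 sets.

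Neighbouring clusters were separated by shorter gaps on X. The median gap between neighbouring clusters was 5004.5 bp on X and 5760 bp on the pooled arms. It was 5612 bp on 2L, 5913 bp on 3L and 5749 bp on 3R. In replicate 1 the median gap was 5183 bp on X and 6471 bp on the arms, and in replicate 2 it was 4988 bp on X and 6484 bp on the arms. The difference of X from the arms was -1392 ± 147 bp (SD, n = 2), and X was below every one of the 3 arms in both replicates. The upper quartile was also lower on X, with 16314 bp on X and 20848 bp on the arms in the combined set, and a difference of -6304 ± 102 bp in the replicates (SD, n = 2). The arm 2R had a shorter median gap than X in the combined set, 4365 bp, and in replicate 1, 4889 bp, but a longer one in replicate 2, 5209 bp.

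Sorted by size, the gaps of X were richer in the short classes than those of the pooled arms. Gaps of 1 to 10 kb made up 44.8% of the 996 gaps of X and 41.4% of the 3094 gaps of the arms, and gaps under 1 kb made up 21.6% on X and 19.3% on the arms. Gaps of 10 to 50 kb made up 23.3% on X, against 28.0% on the arms. The replicates had the same order in these classes: 10 to 50 kb gaps were 24.2% on X and 28.8% on the arms in replicate 1, and 24.1% on X and 29.3% on the arms in replicate 2. Gaps of 50 to 100 kb made up 6.33% on X and 7.24% on the arms in the combined set. Gaps of 1 to 10 kb were more frequent on 2R than on X in every set. There they made up 47.85% in the combined set, 47.0% in replicate 1 and 48.0% in replicate 2. Gaps under 1 kb were less frequent on 2R than on X, with 19.0% in the combined set, 18.0% in replicate 1 and 16.1% in replicate 2.

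Long gaps took up a similar share of sequence on X and on the arms. Gaps of 100 kb or more numbered 40 on X, which was 4.02% of its gaps and 1.78 per Mb, and 126 on the arms, which was 4.07% of their gaps and 1.67 per Mb. They took up 27.2% of the length of X and 26.1% of the length of the arms, where 2L had 29.6%, 3R 26.1% and 3L 22.8%. In the replicates the share of length in such gaps was 29.4% ± 0.57 on X and 28.5% ± 0.10 on the arms (SD, n = 2 each). X lay inside the range of the 3 arms in every set. X therefore combined closer spacing within occupied stretches with about the same share of long cluster-free sequence as the 3 reference arms. This did not hold against 2R. There such gaps took up less of the length than on X, with 17.6% in the combined set, 19.7% in replicate 1 and 18.9% in replicate 2.

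**Figure D2:**
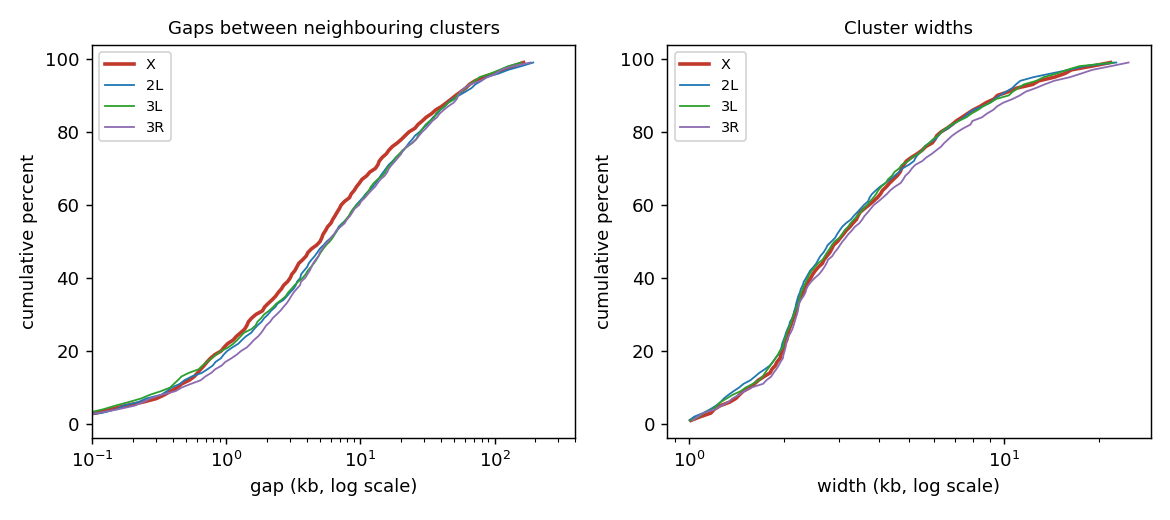
Cumulative distributions of the gaps between neighbouring clusters and of cluster widths in the combined set, both on a log axis in kb, for X (thick line), 2L, 3L and 3R. The X gap curve lies left of the others between about 1 and 50 kb and meets them at the long end. The width curves of X, 2L and 3L lie close together, and that of 3R lies to their right above the median.

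The short gaps placed many X clusters in runs. Joining clusters less than 1 kb apart turned the 997 clusters of X into 782 units, of which 627 were single clusters and 155 were runs of 2 or more. Runs held 37.1% of the X clusters and 33.9% of those on the pooled arms. In replicate 1 the shares were 35.2% on X and 32.5% on the arms, and in replicate 2 they were 35.8% on X and 30.4% on the arms. In all 3 sets X was above each of 2L, 3L and 3R, with 3L closest at 36.5% in the combined set.

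The longest runs of X were dense local groups. The run with the most clusters held 6 within 25775 bp, from 369366 to 395140 near the telomeric end, and 88.3% of that span was covered. Replicates 1 and 2 each had 5 clusters there, over 78.7% of the span in replicate 1 and 79.3% in replicate 2. A run of 5 clusters from 12543125 to 12588300 spanned 45176 bp, with 5 clusters in replicate 1 and 4 in replicate 2. Another run of 5, from 8295745 to 8337159, spanned 41415 bp and was overlapped by 8 clusters in each replicate. Those 8 were not a single run, since no X run held more than 5 clusters in either replicate. The number of clusters in these spans varied between sets, while the covered share of the 2 longer spans in the replicates stayed between 81.3% and 86.2%.

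At the other extreme, 142 of the 997 X clusters (14.2%) had no neighbour within 10 kb on either side. The share on the pooled arms was 17.8%, and on these 3 arms singly it ran from 16.7% on 3R to 18.7% on 2L. On 2R it was 13.2%, below that on X. The isolated X clusters were narrower than those in runs, with a median width of 2312.5 bp against 3576 bp. Their median score was 1.01, against 0.99 for X clusters in runs. On the arms isolated clusters scored 1.08 at the median and clusters in runs 0.90. Of the isolated X clusters 83.1% overlapped clusters of both replicates (95% exact interval 75.9 to 88.9), and of those on the arms 86.6% did (83.5 to 89.3).

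Cut into windows of 100 kb, X had both more crowded and slightly fewer empty windows than the arms. Of the 224 windows of X, 19 (8.48%) contained no base of any cluster, against 77 of the 754 windows of the arms (10.2%). In the replicates the empty share was 9.60% ± 0.32 on X and 11.3% ± 0.28 on the arms (SD, n = 2 each). Among single arms 2L was farthest from X, with 12.6% of windows empty in the combined set. Against 3L, with 8.57%, X differed by -0.089 percentage points, and in the replicates by -0.20 ± 0.26 (SD, n = 2), which is within the spread. On 2R, outside these 3 arms, the empty share was lower than on X in every set. It was 5.69% in the combined set, 7.58% in replicate 1 and 6.64% in replicate 2.

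Crowded windows were more frequent on X than on the pooled arms in each set. Windows with 10 or more clusters, counted by cluster midpoint, numbered 17 on X (7.59%) and 33 on the arms (4.38%). In replicate 1 they made up 6.70% of X windows and 3.45% of arm windows, and in replicate 2 they made up 8.48% of X windows and 2.92% of arm windows. On 2R they made up 10.9% in the combined set, 8.06% in replicate 1 and 7.11% in replicate 2, so 2R was above X in 2 of the 3 sets. The most crowded X window held 14 clusters, as did the most crowded window of each of the 3 arms. The variance of the window counts divided by their mean was 2.45 ± 0.046 on X and 2.06 ± 0.021 on the pooled arms in the replicates (SD, n = 2 each). In the combined set it was 2.27 on X and 2.10 on the arms, but 2L was higher at 2.41.

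**Figure D3:**
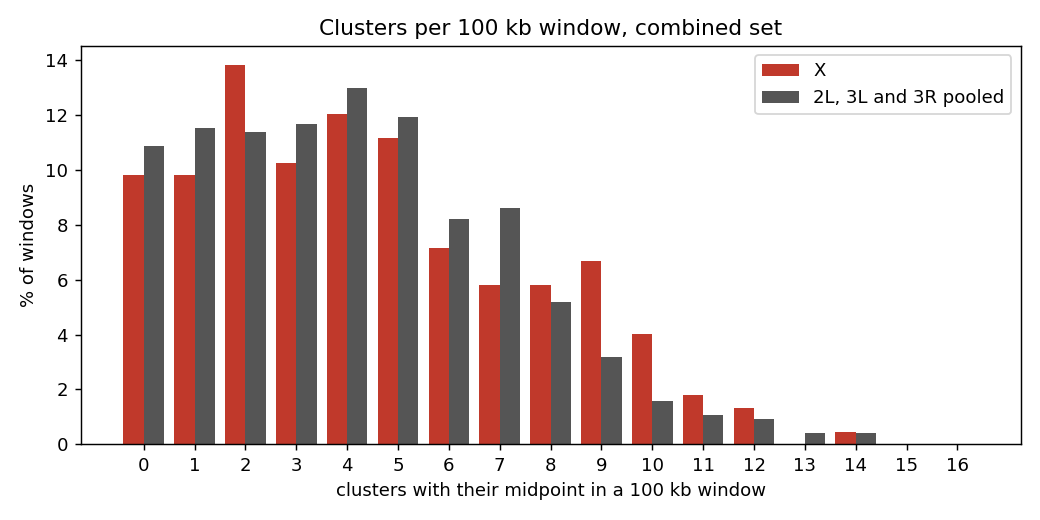
Percent of 100 kb windows of X (red, 224 windows) and of 2L, 3L and 3R pooled (grey, 754 windows) by the number of clusters with their midpoint in the window, combined set. The X bars exceed the grey ones at 8 to 12 clusters and fall below them at 3 to 7; X has 22 windows with no midpoint, 3 of which are touched by a cluster.

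Along X, dense and sparse stretches of 1 Mb alternated. The 22 full windows of 1 Mb ranged from 9.92% to 29.6% covered, with a median of 19.7%. On the 3 reference arms the range was 3.37% to 30.7% on 2L, 8.15% to 28.5% on 3L and 10.6% to 34.5% on 3R. X thus lacked a window as sparse as the emptiest of 2L and one as full as the densest of 3R. The range on 2R was 15.0% to 33.6%. In all 3 sets the sparsest window of X was below the sparsest of 2R, and the fullest of X below the fullest of 2R.

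The 3 most covered windows of X lay far apart. The first, from 19000001 to 20000000, was covered over 29.6% by 55 clusters in the combined set, with 26.5% in replicate 1 and 26.8% in replicate 2. The second, from 15000001 to 16000000, was covered over 29.5% by 63 clusters, with 25.6% in replicate 1 and 26.5% in replicate 2. The window from 1000001 to 2000000 near the telomere followed with 29.1% and 62 clusters, and 24.4% and 24.2% in replicates 1 and 2. This window ranked 4 in replicate 1 and 6 in replicate 2, and the window from 11000001 to 12000000 was covered more in both replicates, over 25.6% in replicate 1 and 27.0% in replicate 2.

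The 3 least covered windows were the same in all 3 sets. The lowest, from 14000001 to 15000000, had 26 clusters over 9.92% of its length in the combined set, 8.86% in replicate 1 and 9.29% in replicate 2. It directly adjoins the second most covered window, so that 9.92% and 29.5% stood in neighbouring windows. The other two adjoin each other near the centromeric end. The window from 20000001 to 21000000 had 24 clusters over 12.4%, and that from 21000001 to 22000000 had 35 clusters over 13.8%. In replicates 1 and 2 the first of them was covered over 10.7% and 11.6%, and its neighbour over 10.9% and 12.3%.

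**Figure D4:**
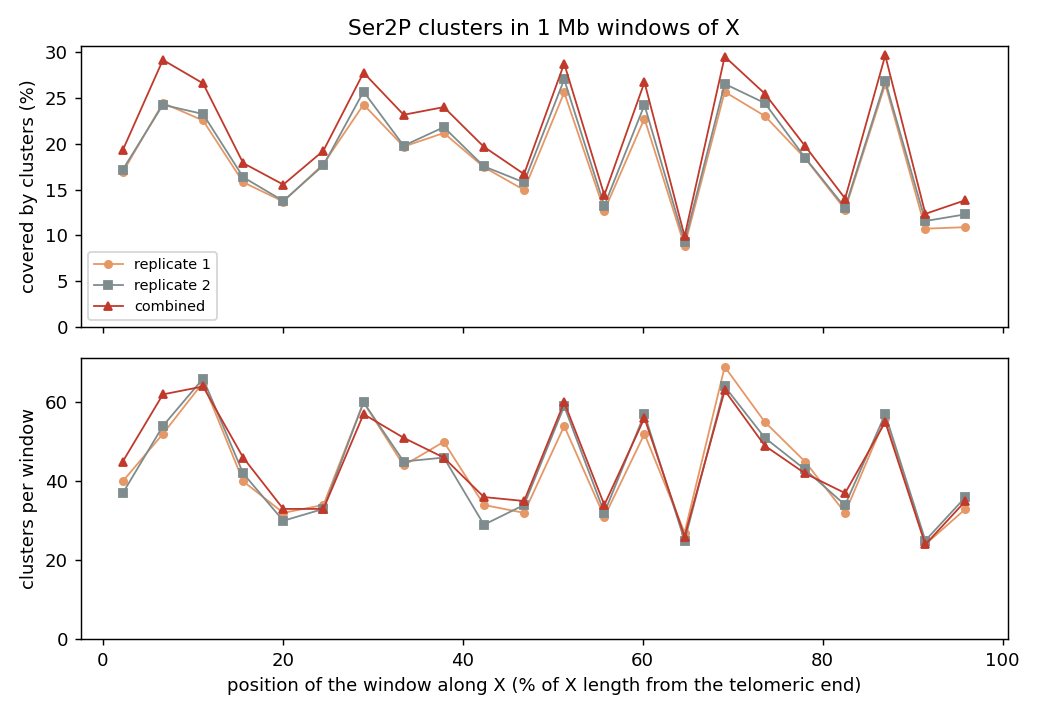
Percent covered (top) and number of clusters (bottom) in the 22 full windows of 1 Mb of X, ordered from the telomeric end and placed as percent of the length of X, for replicate 1, replicate 2 and the combined set. The 3 lines follow one another, peak near 30% covered in the combined set and fall to 9.92% in the sparsest window.

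In 5 equal parts from telomere to centromere, X was most sparsely covered in the part next to the centromere. That part had 35.9 clusters per Mb and 16.5% coverage in the combined set, against 43.0 to 51.7 clusters per Mb and 21.1% to 22.5% coverage in the other 4. Replicate 1 had 14.4% coverage there, and replicate 2 had 15.1%. The arms did not share this order: the part next to the centromere was covered over 21.8% on 2L, 19.3% on 3L and 20.9% on 3R in the combined set. The sparsest part of 2L was the fourth from the telomere, with 9.99%. The sparsest part of 3L was the third, with 16.1%, and that of 3R the first, with 17.2%. How much of each part allows reads to be placed was not measured.

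The longest cluster-free stretches of X fell partly in the same region. The longest ran from 20533703 to 20896202, a distance of 362.5 kb, and lies in the sparse window from 20000001. The second, from 21573148 to 21844698, measured 271.6 kb in the next window. The other 3 of the 5 longest lay elsewhere on X: 257.2 kb from 12098785 to 12355963, 216.2 kb from 7221437 to 7437586 and 210.02 kb from 9693706 to 9903729. None of these 5 stretches held a cluster of its own in either replicate, since replicate clusters reached into them by at most 19 bp at an edge. None held a region listed as depleted either. In the combined set the longest gaps of the arms were 350.7 kb on 2L, 248.4 kb on 3L and 334.0 kb on 3R. In the replicates the longest gap of the 4 arms was on 3L, with 380.7 kb in replicate 1 and 380.8 kb in replicate 2, against 364.4 and 364.5 kb on X.

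The 5 highest-scoring clusters of X ranged from 1008 to 7527 bp in width. The highest score on X belonged to the cluster from 2210437 to 2212846, 2410 bp wide, with neighbours 6490 and 11426 bp away. It scored 4.37 in the combined set, 4.38 in replicate 1 and 4.37 in replicate 2. The cluster from 5792558 to 5800084, 7527 bp wide, scored 3.47, with 3.42 and 3.52 in replicates 1 and 2. One from 5410017 to 5413512, 3496 bp wide, scored 3.27, with 3.24 in replicate 1 and 3.32 in replicate 2; it begins 81.8 kb after the preceding cluster ends. The cluster from 18297415 to 18299849, 2435 bp wide, scored 3.20, with 3.13 and 3.27 in replicates 1 and 2. Each of these 4 was 1 cluster in both replicates, and the replicate scores differed by at most 0.13.

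The second highest score on X had no such backing. The cluster from 5821242 to 5822249, only 1008 bp wide, scored 3.57 in the combined set and overlapped no cluster of either replicate. Its neighbours lay 7135 and 2596 bp away. It is narrower than 1301 bp, the smallest cluster listed in any replicate.

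Support by the replicates was about as frequent on X as on the arms. Of the 997 X clusters, 830 overlapped clusters of both replicates by at least 1 bp, which is 83.2% (95% exact interval 80.8 to 85.5). On the arms it was 2540 of 3097, or 82.0% (80.6 to 83.4). The interval treats clusters as independent and covers counting error only. A further 64 X clusters overlapped one replicate, and 103 (10.3%, 8.51 to 12.4) overlapped neither, against 219 and 338 (10.9%, 9.84 to 12.1) on the arms. By sequence, 94.5% of the covered bases of X and 94.1% of those of the arms lay in clusters backed by both replicates. The way in which the combined set was made from the replicates is not stated in the sources used here, so this overlap is not an independent check of it.

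Replicate support of X clusters went with their width. All 176 X clusters of 5 to 10 kb and all 96 of 10 kb or more overlapped both replicates, as did 500 of 515 clusters of 2 to 5 kb (97.1%). From 1301 bp to under 2 kb the number was 58 of 155 (37.4%, 95% exact interval 29.8 to 45.5). Of the 55 clusters under 1301 bp it was 0 (95% exact interval up to 6.49%), and 52 of them overlapped neither replicate. The arms showed the same steps, with 96.4% of clusters of 2 to 5 kb and 35.6% of those from 1301 bp to under 2 kb.

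**Figure D5:**
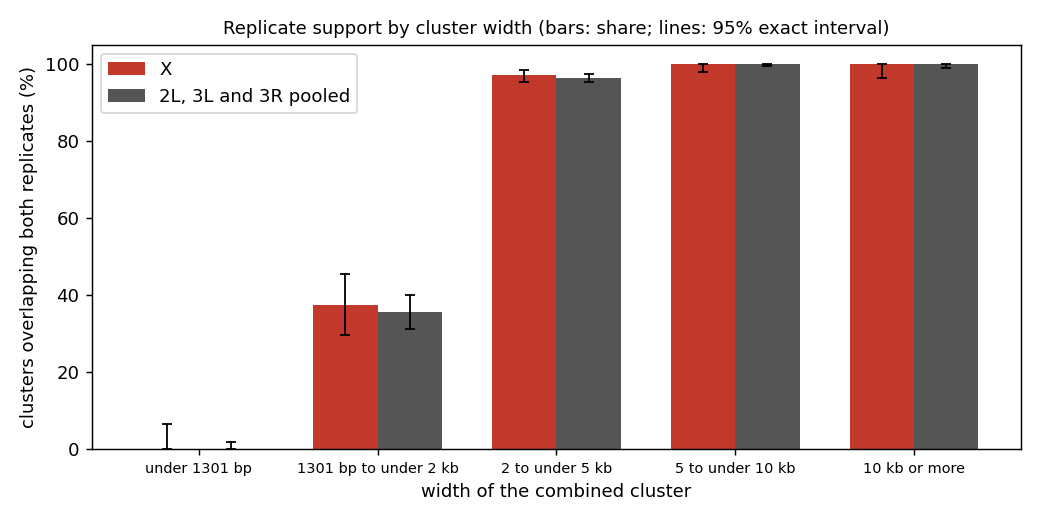
Percent of combined clusters that overlap clusters of both replicates by at least 1 bp, by width class, on X (red) and on 2L, 3L and 3R pooled (grey); bars are shares and lines their 95% exact intervals. Clusters of 5 kb or more are all backed, those from 1301 bp to under 2 kb in 37.4% (X) and 35.6% (arms), and none under 1301 bp.

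The X clusters in neither replicate were 1297 bp wide and scored 0.41 at the median, against 3515 bp and 1.14 for those in both. The 5 highest-scoring of them were, besides the one at 5821242, a cluster from 21571328 to 21573147 with a score of 2.68, the clusters from 4178904 to 4179904 and from 10425054 to 10426054 with 2.30 each, and one from 9692652 to 9693705 with 2.23. Of these 5, the one at 21571328 borders the 271.6 kb stretch without clusters and the one at 9692652 borders the 210.02 kb stretch. The listed lengths of both stretches therefore depend on clusters that neither replicate backs. The rank of the 210.02 kb stretch among the longest may depend on its bordering cluster too. On the far side, the cluster at 21571328 lay 65.2 kb from its neighbour and that at 9692652 lay 15.6 kb from its own.

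Between the replicates, the X lists matched closely. They shared 3.94 Mb, or 96.4% of the bases that replicate 1 covered on X and 93.4% for replicate 2, with a Jaccard index (bases in both lists divided by bases in at least one) of 0.903 on X and 0.905 on the arms. Over the 224 windows of 100 kb, the covered bases of the replicates had a Pearson r of 0.997, a description of neighbouring windows within the same 2 libraries that carries no p. Among the 788 X clusters that matched one to one, the median distance between the replicates' starts was 51 bp and that between their ends 49.5 bp. Their scores differed by a median of 0.084 on X and 0.074 on the arms.

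A few X clusters were listed in a single replicate, 29 in replicate 1 (3.00%) and 50 in replicate 2 (5.18%). On the arms the shares were 3.61% and 5.76%. The highest-scoring of replicate 1 ran from 13895034 to 13896571 with a score of 1.24, from 1522473 to 1523990 with 1.18 and from 22373114 to 22374775 with 0.94. Those of replicate 2 ran from 21413575 to 21415575 with 1.48, from 22375009 to 22376400 with 1.40 and from 13160658 to 13162615 with 1.29. The third of replicate 1 and the second of replicate 2 are less than 1 kb apart at the centromeric end of X. Each of the 6 was also touched by a combined cluster.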

How the data were processed

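Regions of significant enrichment (clusters) or depletion were deposited by the authors for each ChIP replicate and for the series as a whole. The submitters' processing notes name Bowtie 0.12.7 as aligner, and per the file headers positions refer to FlyBase release 5. The score of each region is as deposited; its scale, the caller, its threshold, the use of the input and the depth are not stated in the sources used here. Widths, gaps between neighbouring clusters, covered shares of the sequence lengths in the headers, and full windows of 100 kb and 1 Mb counted from base 1 were computed from starts and ends; "empty" windows contain no covered base. X was compared with 2L, 3L and 3R pooled (sums, or medians over all their clusters or gaps) and singly, with the same values in each replicate as mean ± SD (n = 2) and no test. The gene table at hand describes release 6 and was not used. Regions named are the 5 highest-scoring and 5 widest X clusters, the 5 highest-scoring in neither replicate, the 3 highest-scoring of each replicate alone, the 5 longest gaps, the 3 most and the 3 least covered 1 Mb windows and the 3 longest runs. The members, lists and comparisons were chosen with earlier results of these data known. Overlap, merging and window functions were tested on simulated regions. Intervals are 95% exact (Clopper-Pearson). Tools were Python 3.11.15, pandas 2.3.3, numpy 2.4.6, matplotlib 3.10.9 and scipy 1.17.1.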

Additional observations from a re-analysis of the deposited data

Results flagged for a closer look

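Besides clusters, the combined set listed 13 regions of significant depletion on X, which enter no comparison above and are given here as data outside the main measurement. The pooled arms 2L, 3L and 3R had 48, and the density was 5.80 per 10 Mb on X and 6.36 on the arms. The 13 were 1293 to 1887 bp wide and scored between -0.26 and -0.0070. Of them, 7 coincided with an enriched cluster of a replicate, 3 of these with one in each replicate, 4 overlapped a depleted region of replicate 2, and 2 overlapped no region of either replicate. Of the 48 on the pooled arms, 34 coincided with an enriched cluster of a replicate, 9 of these with one in each replicate. A depleted region of replicate 1 was overlapped by 5 of the 48, and a depleted region of replicate 2 by 9 of them. Of the 48, 9 overlapped no region of either replicate. None of the 13 on X overlapped a depleted region of replicate 1. Replicate 1 listed 2 depleted regions on X and replicate 2 listed 4. Both of those in replicate 1 were listed as enriched in replicate 2, as were 3 of the 6 that replicate 1 listed on the pooled arms.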

How the results depend on the processing

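The read depth behind the clusters is unknown, no difference between arms was tested, and 2 replicates bound the error only loosely. All values here are X minus the pooled arms. The sign of the differences in cluster density, covered share, median gap, empty windows and replicate support was kept under every alternative tried, but their size was not. Leaving out one replicate gave 4.24 to 4.41 clusters per Mb, 1.08 to 1.21 percentage points covered, -31 to -20 bp of median width, -1496 to -1288 bp of median gap, -1.77 to -1.72 points of empty windows, -2.08 to -1.69 points of clusters of 10 kb or more, and 0.47 to 1.35 points of support, against 3.42, 1.36, 10, -755.5, -1.73, -1.06 and 1.23 in the combined set. Merging clusters less than 1 kb apart gave 1.73 clusters per Mb, 1.47 points covered, -99.5 bp of width, -1696 bp of gap and 0.35 points of long clusters. Only clusters in both replicates gave -122.5 bp of width, -1970 bp of gap, -2.25 points of empty windows and -1.47 points of long clusters. The better-scoring 50% gave 1.67 clusters per Mb, 1.08 points covered, -24 bp of width, -4029 bp of gap and -3.34 points of empty windows. Adding 2R to the arms gave 1.08 clusters per Mb, 0.48 points covered, 23 bp of width, -273.5 bp of gap, -0.74 points of empty windows and -0.42 points of long clusters. Without the 1 Mb next to the centromere the values were 4.47 clusters per Mb, 1.84 points covered, -20 bp of width and -2.74 points of empty windows. Windows of 50 kb gave -0.76 and windows of 200 kb -0.076 points of empty windows. The median width changed sign in 6 of 7 alternatives and the share of long clusters in 1 of 5; the cause was not tested. The alternatives for long clusters were chosen after seeing the data. The values without a replicate came from the list of the remaining replicate, or for support from the combined clusters that overlap it. The other alternatives were taken in the combined set. No difference carries a test. No paired analysis was possible because the only groups that share replicate numbers are ChIP and input, and no region list of the input was at hand here.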

Other observations

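Many X clusters that overlapped neither replicate had scores that recur elsewhere. The digits after the decimal point, compared to 9 places, were shared with another cluster of the genome for 24 of the 103 X clusters in neither replicate (23.3%, 95% exact interval 15.5 to 32.7), against 28 of the 830 X clusters in both (3.37%, 2.25 to 4.84). On the arms the shares were 25.1% of those in neither and 3.43% of those in both. The score of 3.57 at 5821242, the second highest on X, shared its decimals with clusters that scored 0.57, 1.57 and 2.57, 17 clusters in all, so these scores lie whole numbers apart. The score of 2.30 occurred at 8 clusters, 2 of them on X. All 5 of the highest-scoring X clusters in neither replicate shared their decimals with others. This comparison was made after the scores were seen.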
